A study of Mus musculus with 48 samples.

Results

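The CD300 and Siglec receptors described here are 8 mouse genes, Cd300a, Cd300lf, Siglece, Cd33, Siglec1, Cd300e, Cd300lb and Cd300ld. They were chosen by symbol among the 51789 gene IDs of the deposited count table, and all 8 were found there. Cd300e and Siglece were picked because their response to AP-3-84, a compound known here by its code only, differed with polarization or genotype in bone marrow-derived macrophages. For this pair, all values in those cells are therefore given as a description with no test, and only the other 6 genes were tested there.

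The 48 libraries come from 3′ mRNA sequencing and form 16 groups of 3. These are 8 macrophage populations, each given vehicle (DMSO) or AP-3-84 at 10 uM over a 4-hour treatment. Ascites macrophages were F4/80+ cells taken with magnetic beads from peritoneal washes of mice 45 days after ID8 ovarian tumor cells, with the strain label B6(Cg)-Tyrc-2J/J. Thioglycollate macrophages were F4/80+ peritoneal cells of wild-type C57BL/6 mice, taken 4 days after 1 ml of 3% thioglycollate, so strain and source cannot be told apart between these populations. Bone marrow cells of wild-type (WT) or p53 knockout (KO) mice were turned into macrophages by M-CSF (10 ng/mL, 6 days), which gives the M0 state. M1 cells then had 24 hours of bacterial LPS (100 ng/mL) plus IFN-γ (50 ng/mL), and M2 cells 24 hours of IL-4 and IL-13 (10 ng/mL each). The labels do not say how p53 was removed, and their genotype field calls all bone marrow-derived samples wild-type, so the grouping follows titles and descriptions. Ages are not stated. The labels do not say that the 3 replicates came from separate animals or cultures, so p-values measure only the spread between these samples.

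CD300 proteins are immunoglobulin-domain receptors of myeloid cells that bind lipids such as phosphatidylserine and phosphatidylethanolamine on dying cells. Siglecs are lectins that bind sialic acids on the cell's own or on neighbouring surfaces. Inhibitory members carry tyrosine motifs that recruit the phosphatases SHP-1 and SHP-2, while activating members have short tails and signal through adaptors such as DAP12 (Tyrobp) or the Fc receptor gamma chain (Fcer1g). In macrophages both families set the threshold for cytokine release and for the uptake of dying cells.

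The 5 CD300 genes lie together on mouse chromosome 11, over 244 kb in GENCODE M21 (GRCm38). Cd300a spans 114890041 to 114904654 on the plus strand, Cd300lb 114922781 to 114934386, Cd300ld 114982274 to 114989922, Cd300e 115051917 to 115062177 and Cd300lf 115116214 to 115133992, the last 4 on the minus strand. Siglece (43651070 to 43660161) and Cd33 (43524216 to 43544428) lie on the minus strand of chromosome 7, and Siglec1 (131069220 to 131086765) on the minus strand of chromosome 2. All are protein-coding genes. Some counts are less certain than others. Cd300lf overlaps Rab37 and Cd300lb overlaps the pseudogene Gm11699, each on the opposite strand, and whether counting used strand is not given in the sources used here. Of the 30-base stretches of its transcripts, Cd300a shared 7.97% with transcripts of other genes, Cd300ld 6.79% and Cd300lf 4.5%. Most was shared with Cd300c2 by Cd300a, with Cd300lf by Cd300ld and with Cd300ld by Cd300lf, and reads could be split between such genes. The share was 0 for Cd300e and Cd300lb and at most 1.69% for the 3 Siglec genes.

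Promoters are shown for Cd300e and Siglece, the pair picked for its response in bone marrow-derived cells, where both rose and fell together. They are also shown for a pair with the opposite course, Cd300a and Cd300lb. Each window runs from 250 bases before to 50 bases after the annotated start, 5′ to 3′ on the gene's strand, from RefSeq (GRCm38.p6). Capitals mark matches to the motifs named after the sequences. The regions are chr11:115061990-115062289 (minus strand) for Cd300e, chr7:43660112-43660411 (minus strand) for Siglece, chr11:114889791-114890090 (plus strand) for Cd300a and chr11:114934322-114934621 (minus strand) for Cd300lb.
Cd300e: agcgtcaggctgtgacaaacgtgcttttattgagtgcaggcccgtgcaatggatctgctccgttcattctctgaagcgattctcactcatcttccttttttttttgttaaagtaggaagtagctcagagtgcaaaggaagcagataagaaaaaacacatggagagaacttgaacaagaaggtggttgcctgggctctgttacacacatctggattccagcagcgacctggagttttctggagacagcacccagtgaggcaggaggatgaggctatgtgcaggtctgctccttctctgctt
Siglece: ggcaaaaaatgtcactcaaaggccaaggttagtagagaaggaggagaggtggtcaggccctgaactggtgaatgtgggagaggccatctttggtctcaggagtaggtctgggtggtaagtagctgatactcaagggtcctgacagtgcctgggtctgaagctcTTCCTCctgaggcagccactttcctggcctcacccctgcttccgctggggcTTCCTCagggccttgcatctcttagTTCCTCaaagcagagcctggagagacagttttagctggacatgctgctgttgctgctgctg
Cd300a: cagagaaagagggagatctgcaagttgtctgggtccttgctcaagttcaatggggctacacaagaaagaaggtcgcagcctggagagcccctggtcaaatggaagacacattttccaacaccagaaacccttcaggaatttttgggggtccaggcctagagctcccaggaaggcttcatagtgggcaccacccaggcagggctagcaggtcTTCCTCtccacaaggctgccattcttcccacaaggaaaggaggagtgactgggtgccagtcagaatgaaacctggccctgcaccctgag
Cd300lb: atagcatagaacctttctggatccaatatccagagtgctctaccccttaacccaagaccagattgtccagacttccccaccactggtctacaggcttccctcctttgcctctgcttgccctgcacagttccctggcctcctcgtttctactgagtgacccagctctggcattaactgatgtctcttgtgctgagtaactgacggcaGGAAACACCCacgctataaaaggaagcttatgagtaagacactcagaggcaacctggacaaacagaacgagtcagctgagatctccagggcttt
Promoter windows were found for 7 of the 8 genes, with Siglec1 as the exception. On both strands, the Cd300e window held 0 matches to the motifs named here. Siglece held 3 matches to the PU.1 core GAGGAA, all on the reverse strand, with first bases at -87, -36 and -11 from the transcript start, and Cd300a held 1 at -39. This core was present in 28.3% of 32851 mouse promoter windows. Cd300lb held 1 match to the NF-kB motif at -44, on the reverse strand, which 1.63% of windows held. The capitals in each window are those matches and no others. The STAT6 motif (6.95% of windows), the ISRE (3.44%), the AP-1 letters TGANTCA (7.81%) and the p53 half-site (8.36%) matched in 0 of the 7 windows. Overlaps between matches of different motifs were absent in the 4 windows shown. A match is a stretch of letters, not a measured binding site.

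Library totals were 15532373 to 19417581 counts in the peritoneal libraries and 3081707 to 4645148 in the bone marrow-derived ones. Levels are given as CPM, a library's counts scaled to a common total with TMM factors. Fold changes are fitted from counts and given on the log2 scale with their SE. Markers of the labelled cell type (Adgre1, Csf1r, Cd68, Itgam, Fcgr1, Mertk) were detected in every group, 6 of 6. In WT vehicle libraries Arg1, an M2 marker, was read at 2.04 to 6.06 CPM in M0, 40.3 to 51.7 in M1 and 1003 to 2240.0 in M2, and Nos2, an M1 marker, at 0 to 0.767, 1.51 to 4.77 and 0.317 to 5.01, so that Nos2 did not separate M1 from M2. Trp53 was lower in KO than in WT in M0 (-1.34, edgeR adjusted p = 0.0102) and was not called in M1 (-0.22, edgeR adjusted p = 0.765) or M2 (-0.63, edgeR adjusted p = 0.407). Its target Ccng1 was lower in all 3 states, with 94.0 to 176 CPM over WT and 25.2 to 37.9 over KO vehicle libraries. A 3′ read of Trp53 does not show whether the deleted part is missing. The third KO M0 library given AP-3-84 stood apart from the other 2 for most of the receptors, and WT M2 and KO M2 vehicle libraries varied in neutrophil markers (6 genes summing to 418 to 3737 CPM and to 336 to 3052). For the called KO M0 responses and M2 changes, values without such libraries follow the result.

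**Figure D1:**
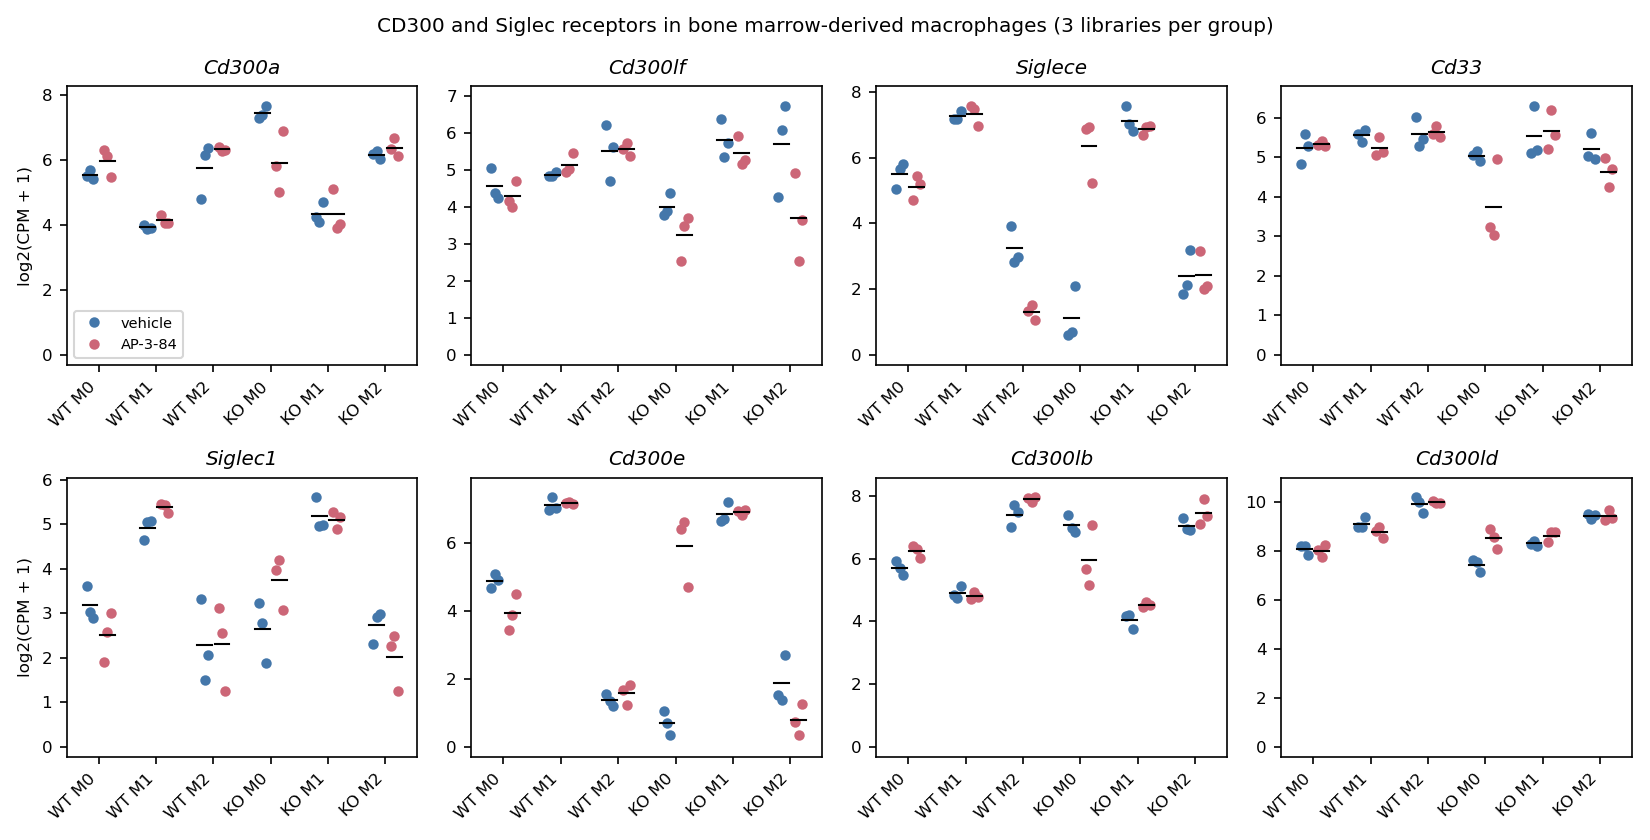
Levels of the 8 receptors in bone marrow-derived macrophages as log2(CPM + 1), 1 point per library, with a line at each group's mean; blue is vehicle and red is AP-3-84. Cd300e and Siglece sit near the floor in KO M0 vehicle libraries and above 20 CPM in all 3 KO M0 libraries given AP-3-84.

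In the absence of the compound, 5 of the 6 tested receptors changed with polarization in at least 1 genotype, in different directions, and Cd33 was not called. The M1 state came with more Siglec1 and Cd300ld and less Cd300a in both genotypes, and the M2 state with more Cd300ld. Against M0, 3 of 6 tested members were called in WT M1 (15.5% of all tested genes), 2 of 6 in WT M2 (23.4%), 5 of 6 in KO M1 (44.5%) and 3 of 6 in KO M2 (38%), at an adjusted p under 0.05 in edgeR's quasi-likelihood test. In bulk RNA, fewer cells expressing a gene and less RNA per cell cannot be told apart. Some cell markers also differed between M0 and M1. Neutrophil genes summed to 242 to 451 CPM in WT M0 and 435 to 566 in WT M1 vehicle libraries, which overlapped. In WT, edgeR did not call S100a8 (0.93 on the log2 scale), S100a9 (-0.14), Csf3r (0.73) or Mpo (-1.58). The KO sums were 524 to 649.5 in M0 and 975.4 to 2356 in M1, with Ly6g at 0 in KO M0. The monocyte gene Ly6c2 was read at 11.5 to 30.5 and 65.4 to 74.8 CPM in WT and at 14.3 to 20.0 and 107 to 188 in KO. Macrophage genes summed to 3767 to 4564 and 5889 to 6244 CPM in WT and to 7107 to 10477 and 4259 to 4829 in KO. Within the WT sum, Fcgr1 (2.65 on the log2 scale), Adgre1 (1.25) and Itgam (0.91) were called higher in M1 by edgeR. Csf1r (-0.12), Cd68 (-0.49) and Mertk (-0.59) were not called. The part of all these markers in the polarization changes was not tested.

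Among the inhibitory receptors, Cd300a, which restrains myeloid and mast cells on binding phosphatidylserine, was read at 44.2, 50.9 and 41.7 CPM in WT M0 vehicle libraries and at 14.9, 13.8 and 14.1 in WT M1. KO libraries held 156, 168 and 202 CPM in M0, 17.9, 15.9 and 25.0 in M1 and 71.1, 76.1 and 64.5 in M2. All M1 libraries lay below all M0 libraries of their genotype, and KO M0 stood above every other vehicle group of bone marrow-derived cells. The log2 fold change from M0 to M1 was -1.68 ± 0.38 (SE; edgeR adjusted p = 0.00347) in WT and -3.15 ± 0.38 (edgeR adjusted p = 2.91e-07) in KO. From M0 to M2 it was -1.31 ± 0.35 (edgeR adjusted p = 0.00398) in KO, called at -1.36 to -1.25 with single KO M2 libraries left out, and 0.38 ± 0.35 (edgeR adjusted p = 0.478) in WT. The WT M2 group was uneven, with 26.7, 70.3 and 81.1 CPM, and without its first library that value was 0.72.

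Cd300lf, an inhibitory receptor for phosphatidylserine and ceramide and the entry receptor of murine norovirus, rose in KO cells under both stimuli. Its KO M0 vehicle libraries held 12.8, 13.9 and 19.7 CPM, KO M1 held 83.0, 40.2 and 52.7, and KO M2 held 18.6, 67.1 and 106. The M1 libraries did not overlap with M0, while the lowest M2 library did. The log2 fold changes were 1.92 ± 0.51 (edgeR adjusted p = 0.00365) for M1 and 2.05 ± 0.51 (edgeR adjusted p = 0.00266) for M2. In WT the values were 0.28 ± 0.50 and 1.07 ± 0.49, neither called (edgeR adjusted p = 0.765 and 0.12). The difference between genotypes was 1.64 ± 0.71 for M1 and 0.98 ± 0.70 for M2 and passed in neither (edgeR adjusted p = 0.106 and 0.317). Leaving out 1 KO M2 vehicle library at a time gave 2.48, 2.01 and 1.48 for the KO M2 change of Cd300lf, all called. The part of the neutrophil markers, which ranged from 336 to 3052 CPM over these libraries, was not tested.

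Cd33, a sialic acid-binding receptor of myeloid cells, was the member that was called in 0 of the 9 vehicle comparisons of bone marrow-derived cells, interactions included. Group means there ran from 31.8 ± 2.77 CPM in KO M0 to 48.8 ± 24.8 in KO M1 (SD, n = 3), and neighbouring groups in that order overlapped. The 95% interval of its log2 fold change from M0 to M1 was -0.44 to 1.03 in WT and -0.12 to 1.36 in KO.

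Siglec1, the macrophage adhesion Siglec known as sialoadhesin or CD169 and as an interferon-responsive gene, was read at 11.2, 7.17 and 6.39 CPM in WT M0 vehicle libraries and at 23.8, 32.3 and 32.5 in WT M1. KO libraries held 8.39, 5.85 and 2.70 CPM in M0 and 47.5, 30.1 and 30.8 in M1. Every M1 library exceeded every M0 library. The increases were 1.83 ± 0.42 on the log2 scale in WT (edgeR adjusted p = 0.00299) and 2.67 ± 0.44 in KO (edgeR adjusted p = 1.6e-05). M2 libraries were uneven in WT (8.90, 1.81 and 3.17 CPM) and lay at 3.98, 6.53 and 6.94 in KO. The M2 values were -0.81 ± 0.48 and 0.05 ± 0.48, neither called. Without the first WT M2 library, the WT value was -1.74 and was called.

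Of the activating receptors, Cd300lb, which signals through DAP12, held 59.4, 50.9 and 43.2 CPM in WT M0 vehicle libraries, 27.4, 26.0 and 33.7 in M1 and 127, 206 and 179 in M2. The 3 states did not overlap. In KO vehicle libraries it held 165, 124 and 114 CPM in M0, 17.0, 17.5 and 12.5 in M1 and 154, 122 and 121 in M2. The rise from M0 to M2 was 1.73 ± 0.29 in WT (edgeR adjusted p = 6.35e-05) and -0.02 ± 0.28 in KO (edgeR adjusted p = 0.958). The WT rise was 1.90, 1.59 and 1.70 without the first, the second or the third M2 library, and was called each time. The change to M1 was -3.10 ± 0.32 in KO (edgeR adjusted p = 2.4e-08) and -0.82 ± 0.30 in WT, which missed the threshold (edgeR adjusted p = 0.0649) and was called by DESeq2 (adjusted p = 0.0406).

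Cd300ld, an activating receptor that signals through the Fc receptor gamma chain, rose with both stimuli in both genotypes. WT vehicle libraries held 297, 293 and 231 CPM in M0, 507, 512 and 682 in M1 and 1179.6, 1040.2 and 751 in M2. KO vehicle libraries held 200.2, 187 and 142 in M0, 316, 342 and 299.9 in M1 and 739, 634 and 709.8 in M2. No state overlapped with another within a genotype. The M2 changes were 1.85 ± 0.19 in WT (edgeR adjusted p = 1.21e-08) and 1.98 ± 0.19 in KO (edgeR adjusted p = 3.37e-09), and the M1 changes 1.05 ± 0.19 (edgeR adjusted p = 0.000239) and 0.86 ± 0.19 (edgeR adjusted p = 0.000486). With single M2 libraries left out, the M2 changes of Cd300ld ran from 1.70 to 2.02 in WT and from 1.93 to 2.04 in KO, all called. The genotypes differed in these changes by -0.19 (95% interval -0.73 to 0.35) for M1 and 0.12 (-0.42 to 0.66) for M2.

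The pair chosen by its response is described without a test. Cd300e, a DAP12-coupled activating receptor of monocytes, held 24.2, 32.7 and 28.6 CPM in WT M0 vehicle libraries, 124, 159 and 129 in M1 and 1.95, 1.51 and 1.27 in M2. KO vehicle libraries held 1.05, 0.616 and 0.270 CPM in M0 (4, 2 and 1 counts), 97.8, 103 and 146 in M1 and 1.86, 1.58 and 5.46 in M2. Thus M1 libraries were the highest in both genotypes, and KO M0 libraries lay near the level of M2. Siglece, the main inhibitory Siglec of mouse myeloid cells, ran in the same order, at 32.1, 49.7 and 55.5 CPM in WT M0, 144, 145 and 170.4 in WT M1 and 14.2, 6.03 and 6.97 in WT M2. In KO vehicle libraries it held 0.524, 0.616 and 3.25 CPM in M0 (2, 2 and 12 counts), 187, 129 and 110.5 in M1 and 2.65, 3.38 and 8.18 in M2.

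**Figure D2:**
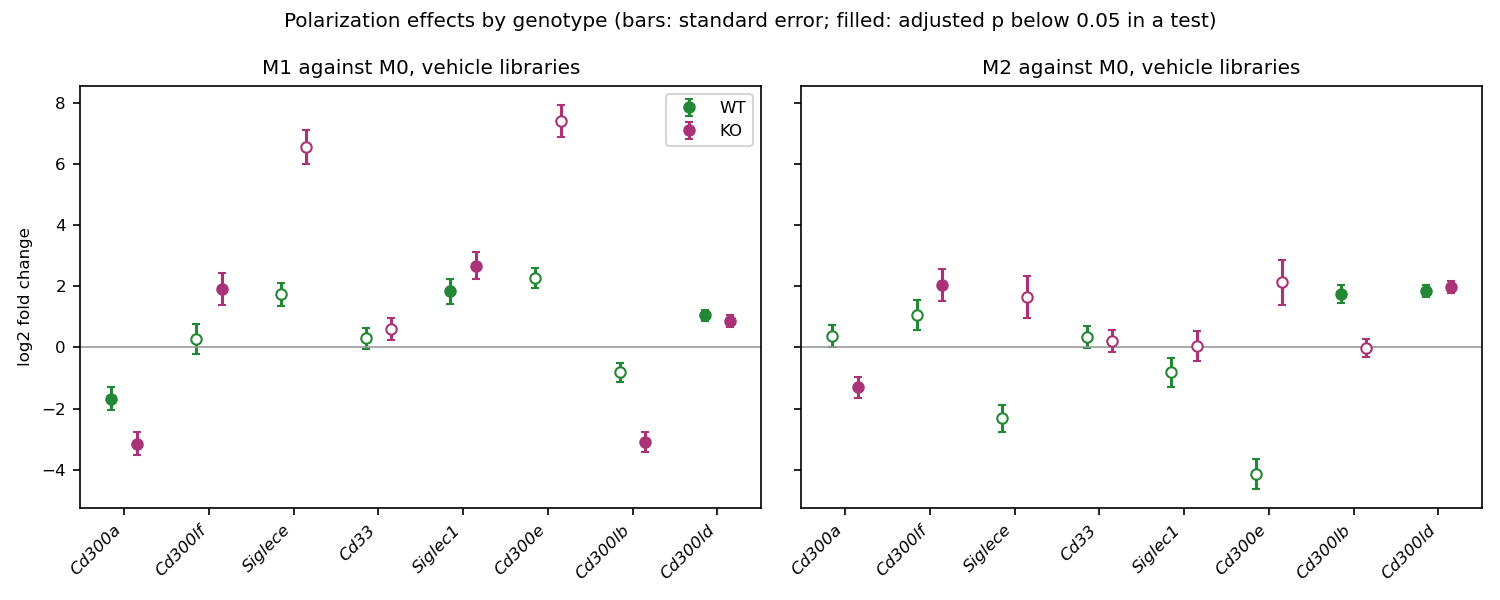
Log2 fold change of each receptor from M0 to M1 (left) and from M0 to M2 (right) in vehicle libraries, with standard errors, in WT (green) and KO (purple); filled points were called in the test, and Cd300e and Siglece were not tested. Cd300a and Cd300lb fell further from M0 to M1 in KO (-3.15 and -3.10) than in WT (-1.68 and -0.82).

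Without the compound, the genotypes differed in 3 of 6 tested members in the M0 state. Cd300a was 1.94 ± 0.36 higher in KO than in WT M0 on the log2 scale (edgeR adjusted p = 0.000166), Cd300lb 1.39 ± 0.29 higher (edgeR adjusted p = 0.000624) and Cd300ld 0.63 lower (-0.63 ± 0.19, edgeR adjusted p = 0.00995). Of all tested genes, 33.2% were called in that contrast. These called members lie in the CD300 cluster on chromosome 11, which starts 45.3 Mb from Trp53 on the same chromosome. The part of sequence linked to Trp53 was not tested. Without the third KO M0 vehicle library the Cd300ld difference was -0.51 and was no longer called (edgeR adjusted p = 0.0708). In M1 edgeR called Cd300ld alone of the 6, at -0.83 ± 0.19 (edgeR adjusted p = 0.00445, 11.6% of genes called). There, 3 members had an unadjusted p under 0.05, and DESeq2 called 2, Cd300ld and Cd300lb. In M2, edgeR called 0 of 6 (3.56% of genes), DESeq2 called 0, and 1 member had an unadjusted p under 0.05.

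The change from M0 to M1 or M2 itself differed between genotypes for Cd300lb and Cd300a, 2 of 6 members in each case, beside 20.7% and 27.1% of all tested genes. For Cd300lb the KO change minus the WT change was -2.29 ± 0.43 for M1 (edgeR adjusted p = 0.000359) and -1.76 ± 0.41 for M2 (edgeR adjusted p = 0.00212). For Cd300a it was -1.48 ± 0.53 for M1 (edgeR adjusted p = 0.0466) and -1.69 ± 0.50 for M2 (edgeR adjusted p = 0.013). These 4 values share the M0 libraries of both genotypes. The Cd300a value for M1 lost its call when any 1 of 11 of the 12 libraries compared was left out, the third KO M1 library being the exception (-1.54 to -1.32, edgeR adjusted p up to 0.114), and that for M2 was lost without the third WT M2 vehicle library (adjusted p = 0.0567). Macrophage markers moved with genotype too, since the 6 genes summed to 7107 to 10477 CPM in KO M0 vehicle libraries and to 3767 to 4564 in WT M0. Their part in the result was not tested.

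In KO M0 macrophages, edgeR called 4 of these receptors between AP-3-84 and vehicle libraries, and only the call of Cd300ld held in all alternatives. There, Cd300ld rose and Cd300a, Cd300lb and Cd33 fell, 4 of 6 tested members beside 20.7% of all tested genes. In the other bone marrow-derived populations edgeR called 0 of 6 members each, beside 0.144% of genes in WT M0, 0.017% in WT M1, 1.21% in WT M2, 0% in KO M1 and 0.0509% in KO M2. Unadjusted p-values under 0.05 numbered 1 in KO M2 and 0 in the other 4, and DESeq2 called 1 member in KO M2 and 0 in the rest.

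Cd300ld held 200.2, 187 and 142 CPM in KO M0 vehicle libraries and 481, 384 and 269.8 with AP-3-84. Each library given AP-3-84 exceeded each vehicle library. The log2 fold change was 1.10 ± 0.19 (edgeR adjusted p = 0.000119) and stayed called under all 13 alternatives tried, at 0.89 to 1.30 with any single library left out.

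Cd300a held 55.8, 31.1 and 117 CPM with AP-3-84, all below the 156 to 202 of vehicle. Its change was -1.36 ± 0.35 (edgeR adjusted p = 0.00617). Cd300lb held 49.5, 34.8 and 134 CPM against 165, 124 and 114, and Cd33 8.34, 7.15 and 30.2 against 32.0, 34.5 and 28.9. For both, the third AP-3-84 library lay within the vehicle range and the other 2 lay below it. Their changes were -0.88 ± 0.29 (edgeR adjusted p = 0.0284) and -1.07 ± 0.38 (edgeR adjusted p = 0.0465). Without the third AP-3-84 library, the values were -2.01 for Cd300a, -1.67 for Cd300lb and -2.03 for Cd33, all called. Without the second, they were -1.01, -0.54 and -0.72 and none was called, and without the first, Cd300a alone of the 3 stayed called (-1.24). Leaving out the first vehicle library also ended the calls of Cd300lb and Cd33, and leaving out the second or the third ended that of Cd33. Fitted with only the KO M0 libraries, Cd300ld alone of the 4 stayed called.

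Siglec1 held 8.39, 5.85 and 2.70 CPM under vehicle and 14.7, 17.3 and 7.41 with AP-3-84 in KO M0. The groups overlapped through the third AP-3-84 library. Its value of 1.21 ± 0.45 missed the threshold (edgeR adjusted p = 0.0557), and DESeq2 called it (adjusted p = 0.0336). Cd300lf stood at 12.8, 13.9 and 19.7 against 4.80, 10.4 and 12.2 CPM, a value of -0.77 ± 0.56 that was not called (edgeR adjusted p = 0.351). In KO M2, Cd300lf was read at 18.6, 67.1 and 106 CPM under vehicle and at 29.6, 4.89 and 11.5 with AP-3-84. Those groups overlapped, and the value of -2.08 ± 0.52 was not called (edgeR adjusted p = 0.112). It was called by DESeq2 (adjusted p = 0.00918).

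For Cd300e and Siglece, which were chosen for this contrast, the values are a description. In KO M0, Cd300e went from 1.05, 0.616 and 0.270 CPM under vehicle to 83.9, 97.2 and 24.9 with AP-3-84, and Siglece from 0.524, 0.616 and 3.25 to 117, 122 and 36.5. The third AP-3-84 library was again the lowest, and still above every KO M0 vehicle library. With it left out, the fitted log2 fold changes moved from 6.65 to 7.05 for Cd300e and from 5.92 to 6.31 for Siglece. In WT M0, Cd300e was lower with AP-3-84, at 9.75, 13.6 and 21.5 CPM against 24.2 to 32.7, and Siglece overlapped at 25.3, 42.2 and 36.1 against 32.1 to 55.5. In WT M2, Siglece was read at 1.54, 1.88 and 1.11 CPM (5, 7 and 4 counts) against 14.2, 6.03 and 6.97. In M1 of either genotype, both genes overlapped between treatments, with Cd300e means of 138 ± 19.2 and 143 ± 2.96 CPM in WT and 116 ± 26.5 and 119 ± 6.27 in KO (SD, n = 3). Among vehicle groups, M1 was the highest for both genes in both genotypes.

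Whether the response differed between populations was tested for the other members. Against the WT M0 response, the KO M0 response was 1.17 ± 0.27 higher for Cd300ld, 1.96 ± 0.65 higher for Siglec1, and lower for Cd300lb (-1.43 ± 0.41) and Cd300a (-1.85 ± 0.49), with edgeR adjusted p of 0.00304, 0.0366, 0.0162 and 0.0111. The same 4 of 6 members differed between the KO M2 and KO M0 responses, with values of -1.08 ± 0.27, -2.05 ± 0.69, 1.31 ± 0.40 and 1.61 ± 0.49 and edgeR adjusted p of 0.00596, 0.0413, 0.0257 and 0.0254. Of all tested genes, 17% and 15.8% were called in these contrasts, which share the KO M0 libraries. Leaving out single libraries ended the call of Cd300ld in 0 cases for both contrasts and of Cd300a in 0 cases for KO against WT. Siglec1 lost its call without any 1 of 7 libraries for KO against WT (1.63 to 1.99) and 8 for M2 against M0 (-2.16 to -1.68), among them the first 2 KO M0 AP-3-84 libraries and the third KO M0 vehicle library. Cd300lb lost it without the first or second KO M0 AP-3-84 library in both contrasts, and for M2 against M0 also without the first KO M0 vehicle, the second or the third KO M2 vehicle or the second KO M2 AP-3-84 library. Cd300a for M2 against M0 lost it without either of the first 2 KO M0 AP-3-84 libraries, the third KO M0 or KO M2 vehicle library or the second KO M2 AP-3-84 library. Between the KO M1 and KO M0 responses edgeR called 0 of 6 members (6.12% of genes), although 5 had an unadjusted p under 0.05 and DESeq2 called 2. In the other 4 contrasts of bone marrow-derived cells, edgeR called 0 of 6 each, beside 0.0255% (WT M1 against M0), 0.136% (WT M2 against M0), 0.00849% (KO against WT in M1) and 1.77% (KO against WT in M2). Unadjusted p-values under 0.05 numbered 0, 0, 1 and 1 there, and DESeq2 called 0 members.

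Other cell markers also moved in KO M0. The 6 macrophage genes summed to 7107 to 10477 CPM under vehicle and to 4100.2 to 6981 with AP-3-84. Within this sum, Adgre1 (1.64 on the log2 scale) and Itgam (1.06) rose, and Csf1r (-1.22), Cd68 (-1.10) and Mertk (-1.88) fell. Those changes were called in edgeR, and that of Fcgr1 (0.73) was not. The 4 platelet and erythroid genes, nearly all of it Pf4, which macrophages also express, summed to 3380.1 to 4106 against 429 to 2820.4. Hbb-bs and Hba-a1 were at 0 in both groups. Neutrophil genes summed to 524 to 649.5 and to 274 to 428 CPM, with Ly6g at 0 under vehicle. Their part in the responses above was not tested.

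**Figure D3:**
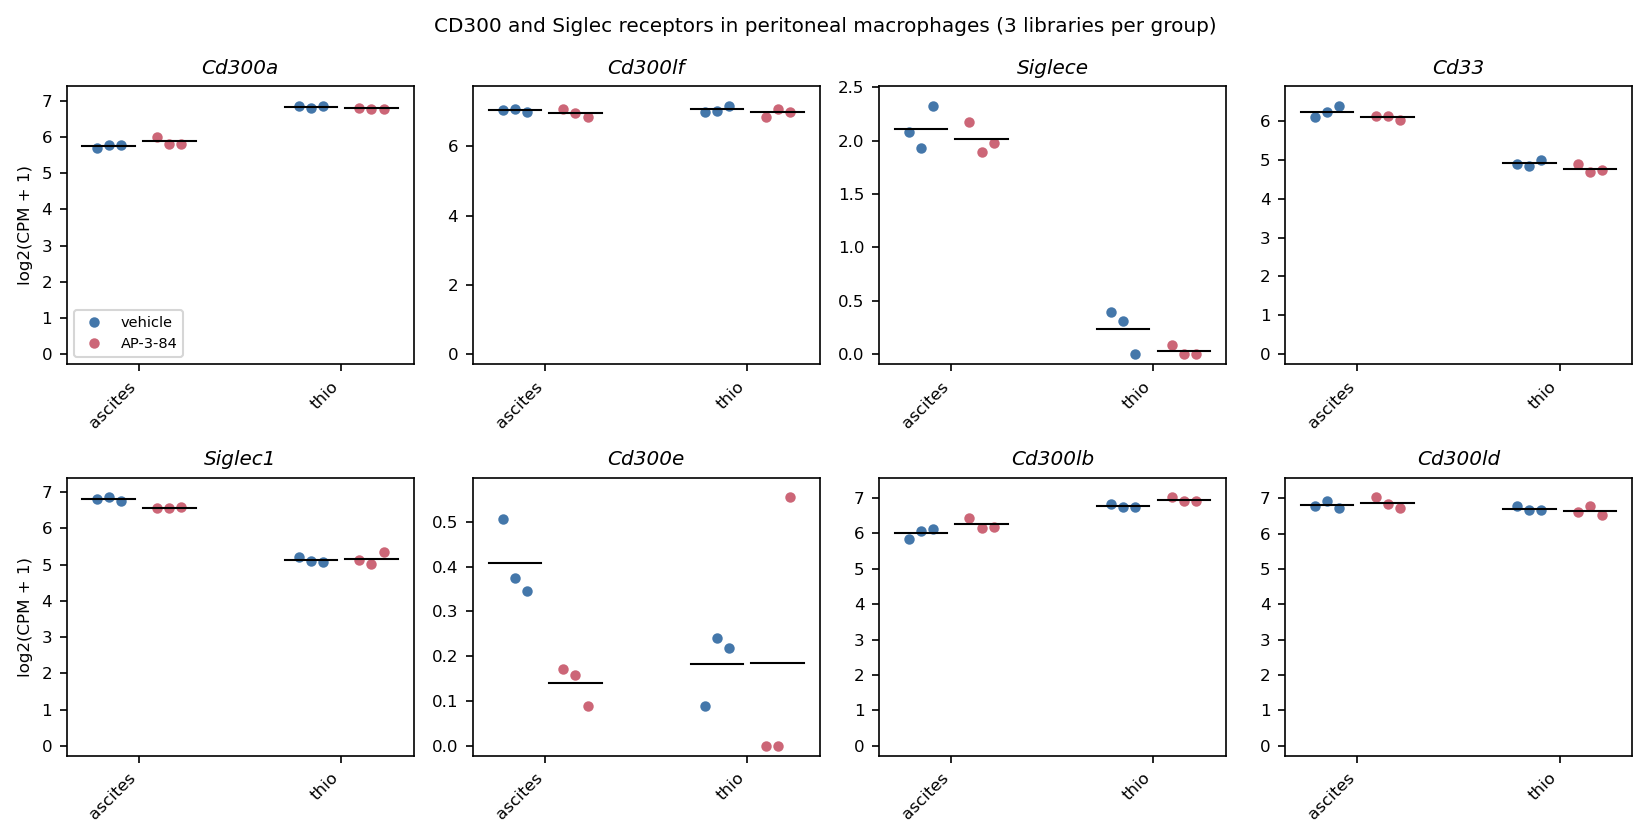
Levels of the 8 receptors in ascites and thioglycollate macrophages as log2(CPM + 1), 1 point per library, with a line at each group's mean; blue is vehicle and red is AP-3-84. Ascites and thioglycollate libraries separate for Cd300a, Cd300lb, Cd33, Siglec1 and Siglece, each panel has its own scale, and Cd300e rests on 0 to 7 counts a library.

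The peritoneal populations differed from each other in 5 of 7 tested members, beside 33.7% of all tested genes. Siglec1, Cd33 and Siglece were higher in ascites macrophages, and Cd300a and Cd300lb were lower. Siglec1 held 112, 115 and 107 CPM in ascites vehicle libraries and 35.8, 33.3 and 32.5 in thioglycollate ones, a log2 difference of 1.72 ± 0.09 (edgeR adjusted p = 3.62e-11). Cd33 held 67.1, 73.2 and 82.4 against 28.6, 27.8 and 30.7 CPM (1.35 ± 0.09, edgeR adjusted p = 2.36e-09). Siglece, at 3.24, 2.81 and 4.01 CPM in ascites (54, 57 and 74 counts) and 5, 4 and 0 counts in thioglycollate libraries, differed by 4.16 ± 0.61 (edgeR adjusted p = 3.33e-05).

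Cd300a held 50.7, 54.2 and 54.2 CPM in ascites and 115, 110.2 and 115 in thioglycollate vehicle libraries (-1.10 ± 0.07, edgeR adjusted p = 1.23e-09). Cd300lb held 56.6, 66.4 and 68.5 against 111, 107 and 106 CPM (-0.76 ± 0.09, edgeR adjusted p = 1.88e-06). None of the 5, all called above, overlapped between the populations, and the share of all genes without overlap is not given here. For Cd300ld and Cd300lf the 95% intervals of the log2 difference were -0.07 to 0.31 and -0.18 to 0.15, and the libraries overlapped. Cd300e was at or below 7 counts in every peritoneal library and did not pass the filter.

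Markers of other cells moved with this contrast. Of the monocyte genes, Ly6c2 was read at 299.4 to 323 CPM in ascites vehicle libraries and at 0.364 to 2.87 in thioglycollate ones, Ccr2 at 139 to 149 against 5.22 to 7.54, and Plac8 at 28.5 to 37.6 against 1.21 to 1.57. The 6 epithelial or tumor cell genes (Krt7, Krt8, Krt18, Krt19, Epcam, Msln) summed to 156 to 187 against 1.46 to 3.70 CPM, with Epcam and Msln at 0 in thioglycollate vehicle libraries. Their part in the differences above was not tested.

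AP-3-84 gave 0 of 7 calls in ascites macrophages (1.79% of all tested genes) and 0 of 7 in thioglycollate macrophages (4.32%) in edgeR and in DESeq2. Unadjusted p-values under 0.05 numbered 2 and 1. For all members but Siglece, the 95% intervals of the ascites responses lay between the lower bound of Siglec1, -0.42, and the upper bound of Cd300lb, 0.43. Siglec1 held 93.3, 93.1 and 95.6 CPM with AP-3-84, all below the 107 to 115 of vehicle, at -0.25 ± 0.08 (edgeR adjusted p = 0.202). The ascites and thioglycollate responses differed in 0 of 7 members in edgeR (0.118% of genes), with 1 unadjusted p under 0.05 and 0 calls in DESeq2.

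The genes through which these receptors signal were counted from lists. In KO M0 given AP-3-84, where 20.7% of all genes were called, 8 of 10 adaptors and kinases were called, 6 higher and 2 lower, with a median log2 fold change of 0.60 against -0.03 over all genes. The Src-family kinase gene Lyn, which rose by 1.37 ± 0.19 (edgeR adjusted p = 5.7e-06), was among them. Of 7 phosphatases and suppressors, 2 were called, both higher, namely Ptpn6, which encodes SHP-1 (1.41 ± 0.20, edgeR adjusted p = 9.8e-06), and the cytokine-signal suppressor Socs3 (2.59 ± 0.57, edgeR adjusted p = 0.0023), and the list's median was 0.34. Of 12 other inhibitory receptors, 5 rose, among them Pilra (2.51 ± 0.55) and Cd72 (2.39 ± 0.34), with edgeR adjusted p of 0.0021 and 1.7e-05. Of 12 DAP12 or Fc receptor gamma-coupled receptors that passed the filter, 2 rose and 2 fell, and Fcgr4, an activating IgG receptor, rose by 2.28 ± 0.58 (edgeR adjusted p = 0.0069).

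Of the genes that make or remove sialic acid ligands, 4 of 18 were called in KO M0 (2 higher, 2 lower), near the 20.7% of all genes, with St8sia4, a polysialyltransferase, at -1.97 ± 0.54 (edgeR adjusted p = 0.011). Of 8 genes that expose or hide membrane lipids, 1 was called beside the same background, the scramblase gene Xkr8 (0.85 ± 0.26, edgeR adjusted p = 0.021). In the peritoneal populations Neu1, the lysosomal sialidase, fell by 0.26 in ascites (-0.26 ± 0.06, edgeR adjusted p = 0.049) and by 0.25 in thioglycollate macrophages (-0.25 ± 0.06, edgeR adjusted p = 0.041). In thioglycollate macrophages, 4 of 12 other inhibitory receptors fell, beside 4.32% of all genes called and 1.82% called lower, with Clec12a at -0.59 ± 0.07 and Fcgr2b at -0.49 ± 0.07 (edgeR adjusted p = 4.2e-05 and 0.00029).

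Across the 12 bone marrow-derived group means, which share libraries of like depth, members fell into courses that were alike or opposed. As a description, Pearson's r of mean log2 CPM was 0.97 for Cd300e with Siglece, 0.92 for Cd300e with Siglec1 and 0.86 for Cd300a with Cd300lb, and -0.94 for Cd300e with Cd300lb. Cd300e and Siglece were picked for response differences in these same groups, so the likeness of the pair was in part set by that choice. Among all genes above a minimum average level (3 on the log2 CPM scale), those most like Cd300e were Kctd12 and Lcp2 (r = 0.98 each), those most like Siglece were Ehd1 and Marco (0.97 each), and those most like Siglec1 were Irf7 (0.98) and Lox (0.97). For Cd300ld they were Socs1 and Ap2m1 (0.95 each), for Cd300lb Sft2d2 and Slc39a10 (0.97 each), for Cd300a Dcaf10 and Ptpra (0.97 each) and for Cd300lf Pigh (0.97) and Dhrs7b (0.91). The genes most like Cd33 were Tmem254b and Tmem254a (0.91 each), near-identical copies whose counts cannot be separated with certainty.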

How the data were processed

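RNA of 48 mouse macrophage samples was sequenced from QuantSeq FWD 3′ libraries (100 ng of total RNA, single reads of 75 bases), per the labels' protocols. The values the authors deposited are raw counts per gene, whole numbers in every column. The submitters' processing notes name RSEM, Bowtie2 and DESeq2 without versions or roles, and the genome build and annotation behind the counts were not given in the sources used here. Of 51789 gene IDs, 51596 matched a symbol.

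Counts were tested with edgeR 4.0.16 (R 4.3.3), quasi-likelihood test, TMM scaling, filterByExpr by group, robust fit, a mean for each group, without a replicate block. Peritoneal (12) and bone marrow-derived (36) libraries were fitted apart (16955 and 11779 genes tested, biological coefficient of variation 0.168 and 0.225). P-values are two-sided and adjusted (Benjamini-Hochberg) over all genes of each of 26 comparisons, called under 0.05. SE is the log2 fold change divided by the square root of F. The fit was tested on simulated data. Gene coordinates came from GENCODE M21 by gene ID.

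The members, lists and comparisons were chosen with earlier results of these data known. All members are named. From other lists, up to 2 called genes with the largest change and an average log2 CPM of 3 or more are named per comparison, and per member the 2 genes with the most similar group means. Replicates differed by more than counting noise (chi-square per gene 2.51 to 38.7 over 48 pairs). Alternatives were median-ratio and total-count scaling, no filter, only the groups compared, all 48 libraries together, DESeq2 1.42.0, a replicate block and leaving out each library. Some list genes are not reported here.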

Additional observations from a re-analysis of the deposited data

Results flagged for a closer look

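The test of the difference itself passed for 12 values. On the log2 scale the KO M2 response minus the KO M0 response was -1.08 for Cd300ld, 1.31 for Cd300lb, -2.05 for Siglec1 and 1.61 for Cd300a. The KO M0 response minus the WT M0 response was 1.17 for Cd300ld, -1.43 for Cd300lb, 1.96 for Siglec1 and -1.85 for Cd300a. The change from M0 to M1 under vehicle differed between KO and WT by -2.29 for Cd300lb and -1.48 for Cd300a, and the change to M2 by -1.76 for Cd300lb and -1.69 for Cd300a. All 12 rest on M0 libraries of the KO group, which several of them share.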

How the results depend on the processing

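Across 133 fold changes followed (those called or at least as large as their SE), 38 of them called, and 55 settings, 0 reversed. Of 2036 comparisons with the values as reported, 1900 stayed, 61 lost a call, 50 gained one and 25 moved. In bone marrow-derived cells the count of called responses was 4, and 7 with no filter on low counts, 1 with only the groups compared fitted, and 1 to 5 with single libraries left out (2 without KO M0 AP-3-84 replicate 1 and 1 without replicate 2). Called differences of responses numbered 8, and 16 with no filter, 2 with only the groups compared, and 3 to 14 with single libraries left out. Specifically, 3 remained without KO M0 AP-3-84 replicate 1 or 2, 14 without replicate 3, and 5 without KO M0 vehicle replicate 3 or KO M2 vehicle replicate 3. The cause was not tested. The other counts stayed within 1.5 times. They were 5 of 5 in all settings for ascites against thioglycollate, 13 to 16 for M1 or M2 against M0, 3 to 6 for KO against WT and 3 to 6 for the genotype difference of polarization. Vehicle and AP-3-84 samples of the same replicate number were mostly not alike (4 of 24 same-number correlations above 0.1, range -0.33 to 0.38). Those 4 lay in WT M2 (0.20 and 0.22) and KO M1 (0.29 and 0.38). With 3 samples a group, such values cannot show whether samples were paired. With a replicate block the counts were 5 responses, 8 differences and 3 genotype differences of polarization, and the KO against WT difference of the change of Cd300a from M0 to M1 lost its call (edgeR adjusted p = 0.0569). The bone marrow-derived libraries, of 3081707 to 4645148 counts, limit the precision for Cd300e, Siglece and Siglec1, which are read at few counts in several groups.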

Other observations

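Other genes of both families that passed the filter were few. Of the other CD300 genes, Cd300c2, a relative of Cd300a, was lower in ascites than in thioglycollate macrophages (-0.29 ± 0.09, edgeR adjusted p = 0.022) and higher in WT M2 than in WT M0 (0.80 ± 0.22, edgeR adjusted p = 0.009). Cd22, a B-cell Siglec, was read at 12.0 to 14.3 CPM in ascites and at 66.5 to 67.2 in thioglycollate vehicle libraries (-2.37 ± 0.10, edgeR adjusted p = 2.4e-12). Siglecf was at 0 counts in the 3 WT M0 vehicle libraries and at 1.39 to 5.70 CPM in WT M2. Mag, a Siglec best known from myelin, was read at 2.46 to 10.8 CPM in KO M0 vehicle libraries and at 11.9 to 28.0 with AP-3-84 (1.90 ± 0.40, edgeR adjusted p = 0.00097).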
